A study of Mus musculus with 12 samples.

Results

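Insulin and IGF1 signalling was examined through 10 genes that together cover a ligand, both receptors, the docking proteins below them, a lipid kinase subunit, a protein kinase, a transcription factor and the glucose transporters of the heart. The genes were Igf1, Insr, Igf1r, Irs1, Irs2, Pik3r1, Akt2, Foxo1, Slc2a1 and Slc2a4. The data were CpG methylation levels from reduced representation bisulfite sequencing (RRBS), in which the enzyme MspI cuts DNA at CCGG and the percent of reads still showing a cytosine after bisulfite treatment gives the methylation of that cytosine. A site belonged to the set when it lay inside 1 of the genes or within 5000 bp of it and had a value in all 12 mice. That rule found 345 sites of 312650 with a value in all 12 mice, and they fell in 9 of the 10 genes. Slc2a4 had 0 sites in the table, also when sites with missing values were allowed.

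The mice were wild-type FVB/N offspring, and DNA came from the left ventricle at 3 weeks of age, at weaning. Their FVB/NJ mothers were put at 6 weeks of age on a high-fat diet (HFD) or, as controls, on a regular diet (RD), were mated 8 weeks later to RD-fed males of matched age, and stayed on their diet throughout. The HFD group held 3 females and 3 males, and the RD group 4 females and 2 males. The labels do not tie mice to mothers, so some mice may be littermates, and p-values measure the spread between mice only. Exposure before birth and exposure during nursing cannot be told apart.

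Insulin and IGF1 bind receptors that are tyrosine kinases, and the activated receptors phosphorylate the docking proteins IRS1 and IRS2. These recruit phosphoinositide 3-kinase, whose lipid product activates AKT kinases. AKT drives the glucose transporter GLUT4 to the cell surface and keeps FOXO transcription factors out of the nucleus, and in the heart the pathway governs growth and glucose use. Promoters rich in CpG are usually free of methylation in all tissues, whereas CpGs inside transcribed genes are usually methylated.

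Per mouse, 385299 to 417081 sites had a value, and Pearson's r between libraries was 0.973 to 0.986 across 306534 autosomal sites, which are not independent replicates. Read counts were not part of the table, so no counting interval can be given and the depth at single sites is unknown. HFD libraries carried the numbers 2 to 8 and RD libraries 9 to 14, so the effects of library order and of diet cannot be told apart. Cell type markers could hardly be read in this assay. Gene-end windows existed for 3 windows of the 8 cardiomyocyte genes (2.29 to 69.2%), for 1 of the 6 endothelial genes and for none of the 5 fibroblast and 5 blood genes, so the tissue label was not checked by them. The endothelial window was that of Esam, with 19.5% ± 3.82 in HFD and 35.0% ± 3.61 in RD (SD, n = 6 each), and its part in the diet comparison was not tested.

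The promoters of the genes differ in CpG content and in how many of their CpGs had a value. RefSeq promoter windows (GRCm38.p6, 250 bases before to 50 after a start) matched 8 of the 10 genes, with 12 windows in all. The 3 printed here show a CpG-dense start that was read at many CpGs, a sparser one that was read at 4, and a CpG-poor one that was not read. CpG content did not order them: the windows of Foxo1 (31 CpGs, 1 CCGG), Irs1 (28 CpGs, 3 CCGG) and the upstream start of Pik3r1 (34 CpGs, 4 CCGG) held 0 sites with a value in all 12 mice, and that of Irs2 (41 CpGs, 5 CCGG) held 1. They are given 5′ to 3′ on the strand of the gene, and capitals mark CpGs with a methylation value in all 12 mice.
Igf1r, chr7:67952007-67952306, plus strand: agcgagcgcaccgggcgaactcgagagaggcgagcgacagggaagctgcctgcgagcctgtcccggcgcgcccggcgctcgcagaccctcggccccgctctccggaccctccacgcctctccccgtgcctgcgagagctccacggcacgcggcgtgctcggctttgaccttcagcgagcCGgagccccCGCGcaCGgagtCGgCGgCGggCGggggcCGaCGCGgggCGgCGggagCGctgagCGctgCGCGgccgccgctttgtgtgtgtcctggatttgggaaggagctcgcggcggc
Slc2a1, chr4:119108495-119108794, plus strand: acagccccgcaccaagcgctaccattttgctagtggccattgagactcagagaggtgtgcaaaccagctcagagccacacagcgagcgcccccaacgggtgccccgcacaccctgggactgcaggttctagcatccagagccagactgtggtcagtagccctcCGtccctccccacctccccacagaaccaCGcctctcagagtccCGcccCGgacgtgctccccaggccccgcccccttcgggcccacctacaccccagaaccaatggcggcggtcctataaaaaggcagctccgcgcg
Igf1, chr10:87860861-87861160, plus strand: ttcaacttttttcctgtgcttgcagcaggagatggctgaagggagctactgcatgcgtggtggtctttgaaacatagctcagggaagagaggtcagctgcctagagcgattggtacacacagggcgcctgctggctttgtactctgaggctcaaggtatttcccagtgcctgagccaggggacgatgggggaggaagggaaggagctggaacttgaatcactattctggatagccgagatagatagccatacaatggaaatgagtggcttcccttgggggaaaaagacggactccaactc
The Igf1r window holds 48 CpGs and 5 copies of CCGG, the MspI site, which reads the same on both strands. The Slc2a1 window holds 18 CpGs and 1 CCGG, and the Igf1 window holds 6 CpGs and 0 CCGG. Among all 32851 promoter windows of that table, the median was 7 CpGs and 52.8% held a CCGG. Autosomal windows with a CCGG had at least 1 site with a value in all 12 mice in 29.2% of cases, against 0.507% of those without one.

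Across the 345 sites, methylation was low at all 130 sites of the 5′ ends (at most 7.03%) and ranged from 0 to 99.0% at the 165 sites inside gene bodies. Of the sites, 243 (70.4%) had a mean under 10%, 50 (14.5%) lay between 10 and 80% and 52 (15.1%) were above 80%. Over all 306534 autosomal sites the shares were 48.7%, 23.5% and 27.8%. Ends were defined as 1000 bp on each side of a gene's 5′ or 3′ end, and the body as the part of the gene more than 1000 bp from both ends. By position, 130 sites lay at 5′ ends, 9 at 3′ ends, 165 in bodies and 41 in the flanks beyond the ends. Of the 165 body sites, 73 had a mean under 10%, and these lay in Foxo1 (27), Irs2 (21), Pik3r1 (18), Irs1 (6) and Igf1 (1). The annotation used gives gene limits but no exons or introns.

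**Figure D1:**
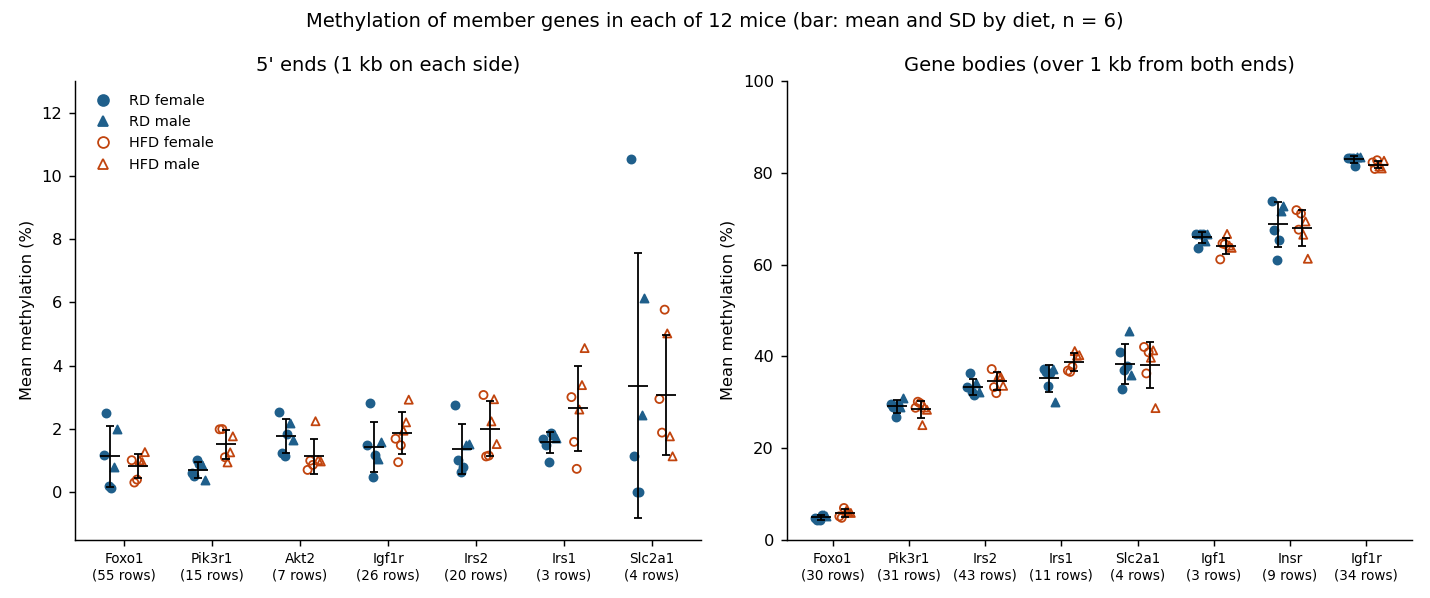
Mean methylation (%) of the 7 measured 5′ ends (left) and 8 gene bodies (right) in each mouse, with RD filled and HFD open, circles for females and triangles for males; bars give the mean and SD by diet (n = 6). The 5′ ends lay under 11% in every mouse, while body levels ran from 5.35% in Foxo1 to 82.4% in Igf1r, and the diets overlapped in each gene.

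All 7 measured 5′ ends had little methylation. In ascending order the means over 12 mice were 0.982% ± 0.714 in Foxo1, 1.11% ± 0.549 in Pik3r1, 1.45% ± 0.621 in Akt2, 1.65% ± 0.733 in Igf1r, 1.69% ± 0.855 in Irs2, 2.12% ± 1.09 in Irs1 and 3.23% ± 3.10 in Slc2a1 (SD, n = 12). Every neighbouring pair in that order overlapped between mice, so the order is not resolved. With sites allowed to lack values in some mice, the Slc2a1 end had 0.966% ± 0.668 in HFD and 1.69% ± 2.45 in RD over 14 sites, and the Irs1 end 1.26% ± 1.13 and 0.878% ± 0.741 over 13 sites (SD, n = 6 each), so both levels depend on which sites are counted. Bodies were spread more widely. Their means were 5.35% ± 0.797 in Foxo1, 28.8% ± 1.58 in Pik3r1, 33.9% ± 1.88 in Irs2, 37.0% ± 3.02 in Irs1, 38.2% ± 4.50 in Slc2a1, 65.0% ± 1.76 in Igf1, 68.4% ± 4.26 in Insr and 82.4% ± 0.997 in Igf1r. Mice did not overlap between Foxo1 and Pik3r1, Pik3r1 and Irs2, Slc2a1 and Igf1, or Insr and Igf1r, whereas Irs2, Irs1 and Slc2a1 overlapped with their neighbours, as did Igf1 with Insr. These body means depend on where in each gene the sites happen to lie.

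**Figure D2:**
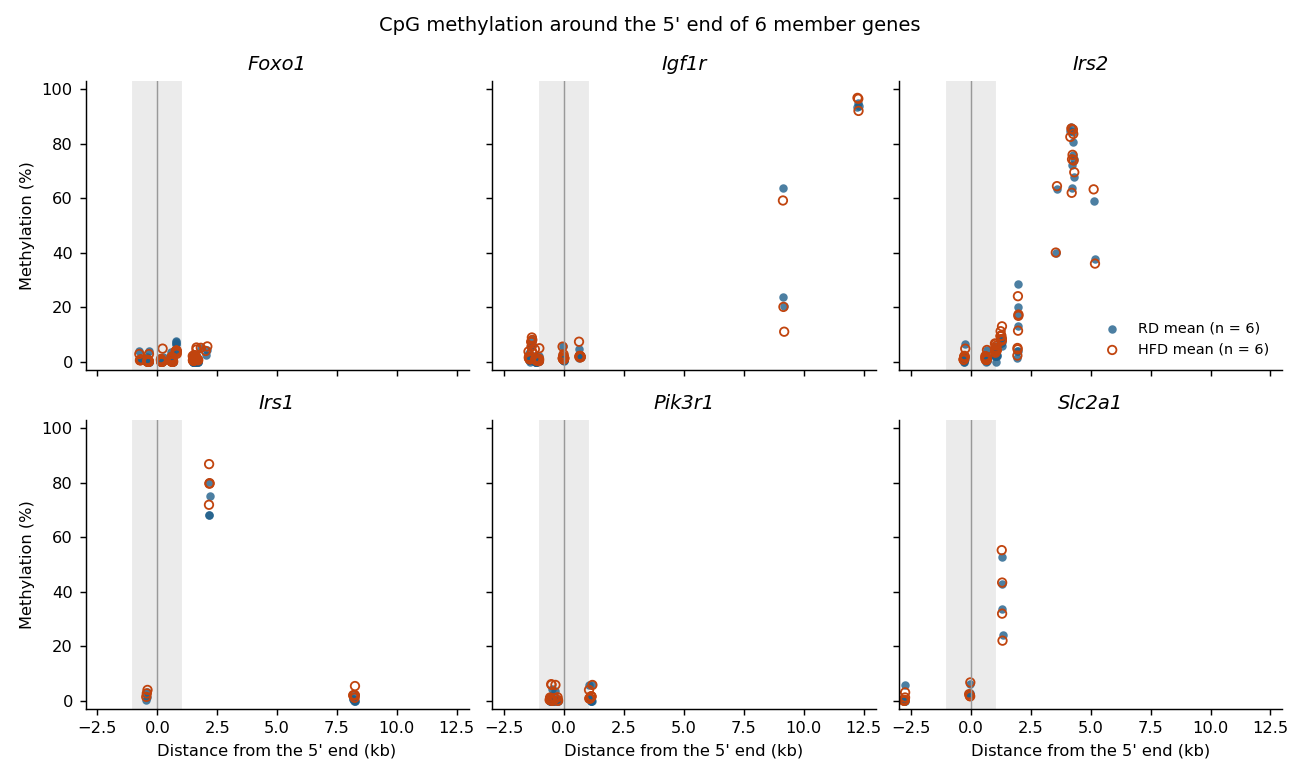
Mean methylation (%) of single CpG sites by diet (RD filled, HFD open, n = 6 each) against distance from the 5′ end in kb for 6 genes, with the end window of 1 kb on each side shaded. The axis runs from -3 to 13 kb and leaves out 30 sites of Igf1r, 22 of Pik3r1, 7 of Slc2a1, 5 of Irs2, 3 of Foxo1 and 1 of Irs1; sites in the shaded windows lie near 0 in both diets.

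Igf1, the ligand made in many tissues including the heart, lies on chromosome 10 from 87858265 to 87937047. It had 3 sites, all inside the gene, between 17428 and 17484 bp from its annotated 5′ end. At position 87875693 the level was 98.0% ± 3.06 in HFD and 100% in each of the 6 RD mice. At position 87875703 it was 94.2% ± 4.70 in HFD and 97.7% ± 3.83 in RD (SD, n = 6 each). At position 87875749 it was 0 in all 12 mice. The mean over the 3 sites therefore mixes highly methylated positions with a position read as 0. This mean ranged from 61.1 to 66.7% over the mice. Whether the FVB mice carry a CpG at position 87875749 was not tested, so its 0 may not reflect an unmethylated cytosine. The Igf1 body, tile and locus all average these 3 sites, so their levels and diet tests share that limit.

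Insr, the insulin receptor, lies on chromosome 8 from 3150922 to 3279649 and had 9 sites with values in all mice, all in the body. At 3225494 and 3225525 the pooled level was 33.1% ± 8.63 over 12 mice (SD), with HFD male 2 at 49.8%, RD female 1 at 48.0% and RD male 2 at 42.4% above the other 9 mice. The pair at 3253043 and 3253064 was highly methylated, with 90.1% ± 1.48 in HFD and 94.8% ± 2.79 in RD (SD, n = 6 each). HFD mice ranged from 87.7 to 92.0% and RD mice from 90.2 to 98.6%, so the diets overlapped. The 4 sites from 3270115 to 3270167 were the most variable 500 bp tile of the gene set. They ranged from 60.2 to 83.3% in HFD, with a median of 74.5%, and from 57.1 to 80.6% in RD, with a median of 75.6%. Their means were 72.7% ± 9.02 in HFD and 72.6% ± 8.39 in RD. At the end of Insr with the higher coordinate, 13 sites from 3279227 to 3279494 had values in only 10 or 11 mice, and each averaged between 0 and 3.37% over the mice with a value.

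Igf1r, the IGF1 receptor, spans chromosome 7 from 67952257 to 68233668 and was the best covered gene, with 96 sites. From -1494 to 684 bp relative to its start, 60 sites each averaged under 10%. In the printed promoter the 17 sites averaged 1.34%, with single sites from 0.523 to 5.64%. Methylation was intermediate 9133 to 9185 bp into the gene, where 3 sites had 61.4%, 21.9% and 15.8% over 12 mice. At 12247 bp and beyond, groups of sites with values in all 12 mice had levels from 65.7% at 68026473 to 98.5% at 68053744, and 95.4% ± 3.70 (SD, n = 12) at the 3′ end. Among sites with values in 8 to 11 mice, 9 from 68223503 to 68223710 were lower, at 7.72 to 44.1%.

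Irs1 and Irs2, the docking proteins, differed in how methylation was laid out from the start. Irs1 lies on the minus strand of chromosome 1 from 82233105 to 82291439. Its 3 sites at -463 to -411 bp from the start averaged 2.12%, the 4 sites 2157 to 2182 bp inside averaged 76.2%, and the 6 sites 8184 to 8255 bp inside averaged 1.44%. A patch without methylation thus lay deeper in the gene than a methylated one, in each of the 12 mice: the lowest value of the nearer group was 61.3% and the highest of the deeper group was 4.38%. The deepest Irs1 site with values in all 12 mice, 35218 bp inside, averaged 93.2%. Irs2, on the minus strand of chromosome 8 from 10984681 to 11008929, showed levels that rose up to 4304 bp inside and then dipped before the 3′ end. The level was 1.72% before the start, 4.25% at 589 to 1285 bp inside, 12.1% at 1928 to 1974 bp, 51.9% at 3533 to 3582 bp and 76.8% at 4140 to 4304 bp, followed by 49.0% at 5114 to 5170 bp and 92.4% near the 3′ end. Of its sites, 30 also lie in the annotated gene 9530052E02Rik, so they belong to both.

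Pik3r1, which encodes a regulatory subunit of phosphoinositide 3-kinase, lies on the minus strand of chromosome 13 from 101680761 to 101768217. The 15 sites at its 5′ end averaged 1.11%, and the 9 sites 1034 to 1174 bp inside averaged 1.80%. RefSeq lists a second start inside this gene, at position 101692630. At -2565 to -2072 bp from that start, 8 sites from 101694702 to 101694756 averaged 1.04% ± 0.964 and 4 sites from 101695138 to 101695195 averaged 17.6% ± 3.06 (SD, n = 12). On each side the body was methylated, with 66.1% at 101691589 and 88.0% from 101707258 to 101707325.

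Akt2, the AKT kinase most tied to insulin's metabolic action, had 7 sites, all 402 to 467 bp inside its 5′ end on chromosome 7 (gene limits 27591552 to 27640826). RefSeq lists 4 starts for Akt2, and the promoter windows of all 4 held 0 sites. Foxo1, a transcription factor restrained by AKT, lies on chromosome 3 from 52268337 to 52350109 and had 85 sites. Of these, 82 averaged under 10%. They reached from -752 to 2087 bp relative to the start, and 27 of the 30 body sites were among them, with a mean of 1.21%. The only sites further inside were 3 at 30750 to 30805 bp, with 42.7% ± 4.70 (SD, n = 12), so the body mean of 5.35% combines unlike stretches.

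Slc2a1 encodes GLUT1, the transporter that dominates in the fetal heart, and Slc2a4 encodes GLUT4, the insulin-responsive transporter that takes over after birth. Slc2a4 (chromosome 11, 69942286 to 69948216) gave no value. Slc2a1, on chromosome 4 from 119108745 to 119137330, was low at -2824 to -2760 bp from the start (0.834%) and at -86 to -38 bp (3.23%). The latter 4 sites, all in the printed promoter, were the most variable 5′ end. RD mice ranged from 0 in RD female 3 and RD female 4 to 10.5% in RD female 1, with 6.14% in RD male 2, and HFD mice ranged from 1.14 to 5.77%. At 1275 to 1307 bp inside, 4 sites averaged 38.2% ± 4.50, and the 5 sites just before the 3′ end averaged 89.2% ± 2.57 (SD, n = 12). The 2 sites just past that end, at 119138078 and 119138139, averaged 51.5% ± 5.79. Of the gene's 21 sites, the 10 before its start also lie in the annotated gene Gm52706.

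The levels of HFD and RD offspring were compared next, since the study asks how maternal obesity affects the offspring heart. No site, tile, end, body or whole locus of these genes passed the test of diet at an adjusted p of 0.05. The test was limma on log2((rate + 0.05)/(1 − rate + 0.05)) with sex as a second term, fitted on all autosomal features, with Benjamini-Hochberg adjustment across each fit. A tile is a 500 bp bin and a locus is the gene with 5000 bp on each side, and all units but sites needed at least 3 sites.

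Of the 345 sites, 116 had a mean of 5 to 95% and were tested, and 0 passed with limma, where 0.0102% of all 157524 tested sites passed. At an unadjusted p under 0.05 stood 4 of the 116 sites, 3 of them lower in HFD, beside 6.53% of all sites. The HFD mean was the lower in 62 of the 116, beside 52.9% of all sites, and the median difference was -0.253 points, beside -0.259 points over all. HFD and RD mice overlapped at each of the 116, where 0.482% of all sites had no overlap. Of 40 tiles, 19 had a mean of 5 to 95%, and 0 of these passed with limma (0.0294% of all tiles), with 1 at an unadjusted p under 0.05 (7.81% of all). The HFD mean was lower in 9 of the 19 tiles, beside 53.3% of all, and the diets overlapped in each, where 0.627% of all tiles had no overlap.

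Ends and bodies were tested without a limit on the mean, so every one with at least 3 sites entered. Of 8 ends, 0 passed with limma (0.0553% of all 9034 ends) and 2 had an unadjusted p under 0.05 (6.32% of all), 1 higher and 1 lower in HFD. Of 8 bodies, 0 passed (0.141% of all 7815 bodies) and 1 had an unadjusted p under 0.05 (8.3% of all), higher in HFD. Of 9 loci, 0 passed (0.105% of all 13380 loci) and 2 had an unadjusted p under 0.05 (7.34% of all), that of Irs1 higher and that of Akt2 lower in HFD. Loci share sites with ends and bodies, so they are not separate evidence. The Akt2 locus holds the same 7 sites as the Akt2 5′ end, with an unadjusted limma p of 0.0371 as a locus and 0.0816 as an end. Of the 14 sites of the Irs1 locus, 11 are those of the Irs1 body. The diets overlapped in every one of these ends, bodies and loci, where 0.52%, 0.704% and 0.658% of all ends, bodies and loci did not overlap. The HFD mean was lower in 4 of 8 ends, 5 of 8 bodies and 6 of 9 loci, beside 44.6%, 55.3% and 49.7% of all. With missing values allowed, an end of Insr was added and 6 of 9 ends were lower. The share over all 10574 ends of that fit is not given here, so the count has no baseline. The Igf1r 5′ end turned from 1.87% ± 0.673 in HFD against 1.44% ± 0.785 in RD to 1.54% ± 0.798 against 1.91% ± 1.84 (SD, n = 6 each).

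**Figure D3:**
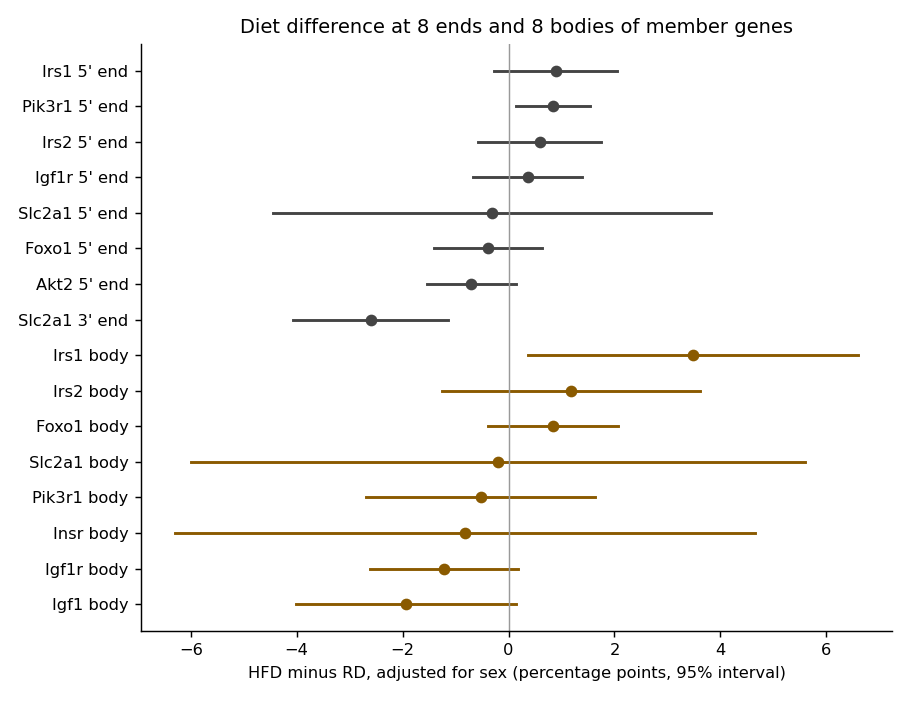
HFD minus RD methylation in percentage points, adjusted for sex, with 95% intervals from limma on untransformed rates, for the 8 ends (grey) and 8 bodies (brown) of the genes. The intervals are not adjusted for the number of features; those of the Pik3r1 5′ end, the Slc2a1 3′ end and the Irs1 body leave out 0, and none of the 16 features passed the adjusted test.

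The ends with the smallest p-values were those of Pik3r1, Slc2a1 and Akt2. At the Pik3r1 5′ end, HFD mice had 0.944% at the lowest, 1.52% at the median and 1.998% at the highest, and RD mice 0.381%, 0.742% and 1.01%. Only HFD male 2, the lowest of its diet, lay below the highest RD mouse. The means were 1.51% ± 0.464 and 0.711% ± 0.250 (SD, n = 6 each; sex-adjusted difference 0.844 points, 95% interval 0.141 to 1.55; limma adjusted p = 0.713). Both levels are low, and the difference is under 1 percentage point. These sites lie at -612 to -257 bp from the start, upstream of the promoter window. With missing values allowed, 24 sites gave 1.22% ± 0.388 and 0.705% ± 0.147 (limma adjusted p = 0.854), and the difference was no longer under an unadjusted p of 0.05.

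At the Slc2a1 3′ end, where 7 sites lie from 119136340 to 119138139, HFD mice had 76.1% at the lowest, 76.9% at the median and 78.5% at the highest, and RD mice 77.6%, 80.1% and 81.0%. The diets overlapped through HFD male 2 and HFD male 4 at the top and RD female 1 and RD female 2 at the bottom. The means were 77.2% ± 0.852 and 79.7% ± 1.34 (SD, n = 6 each; sex-adjusted difference -2.60 points, 95% interval -4.07 to -1.14; limma adjusted p = 0.768). This window pools unlike stretches: the 5 sites before the gene's end had 88.3% ± 2.33 in HFD and 90.0% ± 2.74 in RD, and the 2 sites past it had 49.2% ± 3.99 and 53.8% ± 6.72, with RD male 2 highest at 65.7%. At the Akt2 5′ end, HFD mice ranged from 0.707 to 2.25% with a median of 0.987%, and RD mice from 1.15 to 2.55% with a median of 1.75% (limma adjusted p = 0.810). HFD male 2 held the highest HFD value, and the other 5 HFD mice lay below all RD mice.

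Among bodies the smallest p-values were those of Irs1, Foxo1 and Igf1r. In the Irs1 body HFD mice had 36.6% at the lowest, 38.9% at the median and 41.1% at the highest, and RD mice 29.999%, 36.5% and 37.3%. All 3 HFD males, at 40.1 to 41.1%, lay above every RD mouse, while 2 of the 3 HFD females lay within the RD range. The means were 38.8% ± 1.95 and 35.2% ± 2.91 (SD, n = 6 each; sex-adjusted difference 3.49 points, 95% interval 0.368 to 6.60; limma adjusted p = 0.602). This body also pools unlike stretches: 1 site at 93.2%, 6 at 1.44% and 4 at 76.2% over the 12 mice. Those 4 are the methylated Irs1 tile described below, so body and tile are not separate results. The lowest RD value was that of RD male 2, with RD female 3 next at 33.4%. In the Foxo1 body the HFD mean was 5.82% ± 0.784 and the RD mean 4.89% ± 0.506 (limma adjusted p = 0.634), and in the Igf1r body the means were 81.8% ± 0.849 and 83.0% ± 0.775 (limma adjusted p = 0.690). The Igf1r body difference was -1.20 points, and -0.778 points with missing values allowed.

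Intervals of the other ends and bodies were as follows, and they say nothing of single sites. For the 5′ ends of Irs1, Irs2, Igf1r, Foxo1 and Akt2, the 95% intervals of the diet difference lay between -1.55 and 2.05 points. Those of the Igf1, Irs2, Pik3r1, Foxo1 and Igf1r bodies lay between -4.01 and 3.62 points. The widest ran from -4.45 to 3.82 points at the Slc2a1 5′ end, -6.29 to 4.65 points in the Insr body and -6.00 to 5.59 points in the Slc2a1 body.

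Within genes, the tile with the smallest p-value was the intermediate one of Igf1r, at chromosome 7, 67961390 to 67961442. HFD mice had 23.1% at the lowest, 30.4% at the median and 37.3% at the highest, and RD mice 30.95%, 35.4% and 42.5%, so that HFD male 3, HFD male 4 and HFD female 2 lay inside the RD range. The means were 30.1% ± 5.56 and 36.0% ± 3.84 (SD, n = 6 each; limma adjusted p = 0.588). The third of its sites, at 67961442, had the smallest p-value of all member sites, with 10.97% ± 4.83 in HFD and 20.6% ± 8.21 in RD (adjusted p = 0.649 with limma).

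The methylated tile of Irs1, at chromosome 1, 82289257 to 82289282, went the other way. It had 75.0% at the lowest, 78.6% at the median and 85.9% at the highest in HFD, and 61.3%, 75.3% and 79.2% in RD. The 3 HFD males were the highest of the 12 mice and RD male 2 the lowest, and the means were 79.5% ± 4.44 and 72.9% ± 6.67 (SD, n = 6 each; limma adjusted p = 0.677). Without RD male 2 the difference was 4.32 points in place of 6.64 (limma adjusted p = 0.902). Its site at 82289263 had 79.6% ± 7.65 in HFD and 68.2% ± 5.78 in RD (adjusted p = 0.689 with limma). The unmethylated patch deeper in Irs1, singled out after its values were seen and too low in methylation to enter the tile test, had 2.38% ± 1.51 in HFD and 0.497% ± 0.775 in RD (SD, n = 6 each). HFD mice ranged from 0.463 to 4.38% and RD mice, 4 of which were at 0, up to 1.63%. The tile near the 3′ end of Irs2, at 10986442 to 10986489, had 93.6% ± 3.50 in HFD and 90.2% ± 3.97 in RD (adjusted p = 0.740 with limma). Its difference of 3.49 points was 2.32 points without RD female 4.

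The other sites with small p-values were all lower in HFD without passing. In Igf1r, position 68189693 had 69.5% ± 8.07 in HFD and 79.2% ± 2.05 in RD (SD, n = 6 each; limma adjusted p = 0.741). In Insr, position 3253064 had 90.6% ± 3.20 against 95.3% ± 2.49 (limma adjusted p = 0.732) and its neighbour 3253043 had 89.6% ± 4.11 against 94.3% ± 4.28 (limma adjusted p = 0.777).

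**Figure D4:**
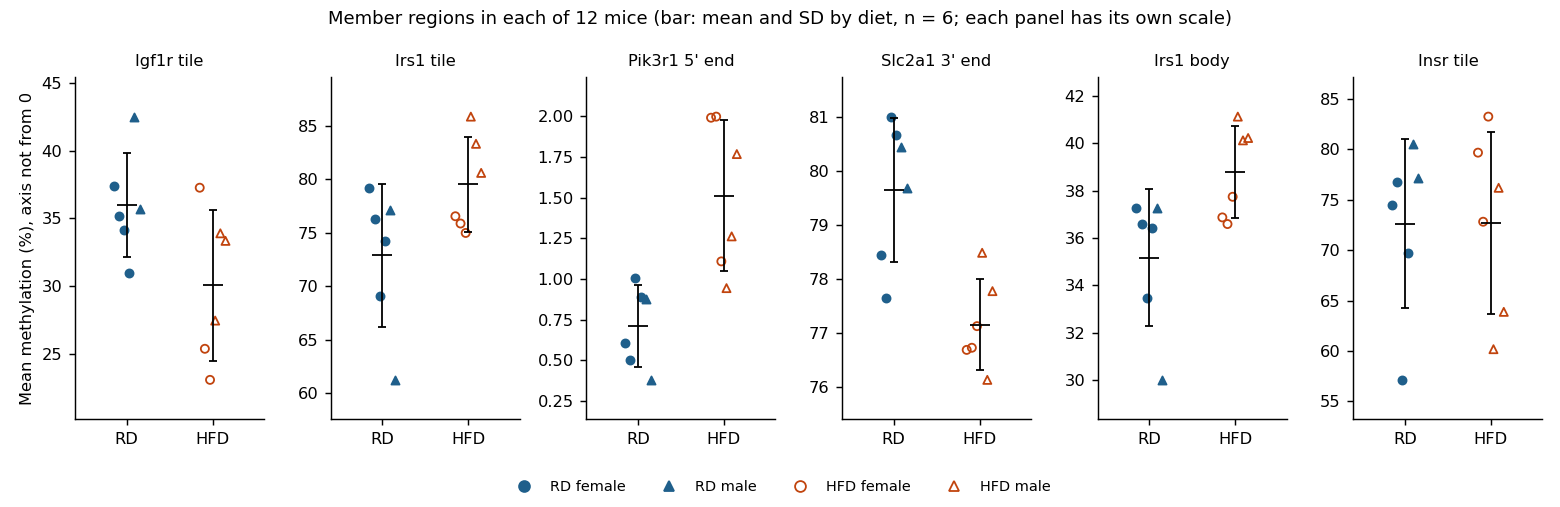
Mean methylation (%) of 6 regions in each mouse (RD filled, HFD open, circles for females, triangles for males; bars give the mean and SD by diet, n = 6), each panel with its own scale that does not start at 0. HFD and RD mice overlap in every panel, and the Insr tile, which was the most variable, spreads from 60.2 to 83.3% in HFD and from 57.1 to 80.6% in RD.

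Sex and its interplay with diet were tested on the same ends and bodies. Between females and males, 0 of 8 ends and 0 of 8 bodies passed with limma (0.0221% and 0.0128% of all), the smallest adjusted p being 0.849 and 0.974, and 0 and 0 had an unadjusted p under 0.05 (5.82% and 5.34% of all). For the difference of the diet effect between the sexes, 0 of 8 ends and 0 of 8 bodies passed (0.0111% and 0% of all), the smallest adjusted p being 0.910 and 0.993, and again 0 and 0 had an unadjusted p under 0.05 (5.39% and 4.53% of all). The RD group held 2 males, which limits the precision of both comparisons.

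The interaction was also tested on the tiles, a test added after their values had been seen. In the most variable tile, that of Insr, HFD females had 78.6% ± 5.30 (SD, n = 3), HFD males 66.8% ± 8.38 (n = 3), RD females 69.5% ± 8.75 (n = 4) and RD males 78.9% ± 2.38 (n = 2). HFD females thus lay above HFD males on average while RD females lay below RD males, and the interaction did not pass with limma (adjusted p = 0.924). Of the 19 tiles, 0 passed (0% of all) and 4 had an unadjusted p under 0.05 (5.1% of all).

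A further 64 genes of the pathway gave the surroundings of the set: binding proteins, adaptors, kinases, phosphatases, the TOR branch and the machinery of glucose transport. At gene ends, 45 windows of 42 of these genes were tested, with a median level of 1.86% beside 2.25% over all ends. With limma 0 passed (0.0553% of all ends), 6 had an unadjusted p under 0.05 (5 higher and 1 lower in HFD, beside 6.32% of all), and 29 were higher and 16 lower (44.6% of all were lower), with a median difference of 0.4657 points beside 0.108 over all ends. In bodies, 39 genes were tested, with a median level of 47.8% beside 66.9% over all bodies. With limma 0 passed (0.141% of all bodies), 8 had an unadjusted p under 0.05 (1 higher and 7 lower, beside 8.3% of all), and 9 were higher and 30 lower (55.3% of all were lower), with a median difference of -0.842 points beside -0.168 over all bodies.

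Among ends with small p-values were those of Igf2r, the imprinted receptor that clears IGF2, and Sh2b2, an adaptor of the insulin receptor. The Igf2r 5′ end had 58.4% ± 4.34 in HFD and 67.4% ± 4.89 in RD (SD, n = 6 each; limma adjusted p = 0.507). The Sh2b2 3′ end had 86.8% ± 1.98 and 83.8% ± 1.91 (limma adjusted p = 0.596). Among bodies, Slc2a12, a glucose transporter, had 84.2% ± 1.23 in HFD and 86.8% ± 0.481 in RD, and its diets did not overlap, with 85.9% as the highest HFD and 86.2% as the lowest RD value (limma adjusted p = 0.314). It was the only 1 of the 39 bodies without overlap, beside 0.704% of all bodies. Pik3cb, a catalytic subunit of phosphoinositide 3-kinase, had 61.7% ± 2.502 and 66.6% ± 3.10 (limma adjusted p = 0.500). Eif4ebp1, a translation repressor controlled by TOR, had 15.4% ± 4.01 and 10.3% ± 1.79 (limma adjusted p = 0.500).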

How the data were processed

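RRBS libraries from the left ventricle of 12 mice were analysed. The authors deposited 1 table of percent methylation per CpG position and mouse, per the file headers, without coverage. FastQC, Trim Galore, Bismark 0.19, limma and the build mm10 are named in the submitters' processing notes, while the coverage minimum is not given in the sources used here. Of 39856 positions inside RefSeq promoter windows (GRCm38.p6), 99.98% fell on the cytosine of a CpG on either strand, so a site is 1 cytosine on 1 strand.

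Every column matched 1 mouse, and 0 columns were left unmatched. Rates were averaged over sites per end, body, locus or 500 bp tile, with features holding the same sites joined and features constant over mice left out. Diet and sex were fitted with limma 3.58.1 (lmFit, eBayes) in R 4.3.3, two-sided, and diet by sex as a contrast of the 4 group means. Strand came from RefSeq promoter windows, which were absent for Insr and Slc2a4. The scripts were tested on simulated data, with 200 features of each kind shifted with diet. At a shift of 1 in the log2 ratio, 0% of sites passed, against 64% of tiles, 85.5% of ends, 92% of bodies and 92.5% of loci. At a shift of 2, 53.5% of sites passed. The fitted shift of the Igf1r site at 67961442 was -0.911, so single sites with shifts of that size would rarely pass.

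All members were named. Of features that did not pass, the rule named the 5 sites, 3 tiles, 3 ends and 3 bodies with the smallest p-values, the most variable tiles, and the 3 ends and 3 bodies of other pathway genes, 1 of which is not reported here. The members, lists and rules were chosen with earlier results of these data known. Alternatives covered the offset, transformation, mean limits, variance model, sex term, replicate block, missing values, window sizes and leaving out each mouse. Figures were drawn with matplotlib 3.10.9.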

Additional observations from a re-analysis of the deposited data

Results flagged for a closer look

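Each diet's 6 mice were examined at every end, body and locus of the genes and at the named tiles and sites, and a mouse is listed here if the distance to its closest neighbour was an unusually large part of its diet's range (Dixon's 95% criterion). This held in 4 of 64 groups of values, beside about 3.2 that chance would give. The mouse HFD male 2 had 24.99% in the Pik3r1 body against 28.3 to 30.1% in the other HFD mice, and 17.1% over the Pik3r1 locus, which shares those sites, against 19.7 to 20.9%. The same mouse had 2.25% at the Akt2 5′ end against 0.707 to 1.02%. RD female 4 had 81.4% in the Igf1r body against 83.1 to 83.5% in the other RD mice.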

How the results depend on the processing

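Under every alternative run, 172 values over 9 counts, the number of called sites, tiles, ends, bodies and loci of the genes stayed at 0 for diet, and that of ends and bodies at 0 for sex and for diet by sex. The smallest adjusted p any of them gave was 0.368 with limma. The 20 named features kept the direction of their diet difference and stayed above the threshold in all 404 alternatives, mice left out included; the Igf1r 5′ end, not among them, changed direction with missing values allowed. Over all features the number of calls between the diets was less stable, with 16 sites (0 to 78 under the alternatives), 7 tiles (3 to 19), 5 ends (0 to 6), 11 bodies (1 to 14) and 14 loci (2 to 18). For diet by sex at all ends it was 1 (0 to 47). With the replicate block, the count of called member features was 0 at each level. Same-numbered mice of one sex had correlations of -0.0352 to 0.0133 over 4 pairs, 1 of which correlated best with its own number. Counting error at single sites can hide a shared deviation, so these values do not settle whether the numbers pair the mice. A coverage minimum was not run because the values carry no coverage, and for the same reason counting error cannot be separated from the spread between mice.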

Other observations

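Sites with a value in fewer than 12 mice, 125 in the 10 gene regions, were used in no comparison above except the alternative that allowed missing values. In Insr, 5 sites from 3221134 to 3221198 averaged 0 to 1.88% over the 11 mice with a value. With missing values allowed, the Insr end with the higher coordinate had 0.694% ± 0.822 in HFD and 0.839% ± 0.727 in RD (SD, n = 6 each; limma adjusted p = 0.974 over 10574 ends). Around the second start of Pik3r1, 4 sites from 101692459 to 101692525 averaged 41.1 to 68.6%. Upstream of Irs1, 10 sites at -151 to -80 bp from the start averaged 0 to 1.78%, and 10 sites of Slc2a1 350 to 394 bp inside averaged 0 to 0.357%.

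The most variable tiles of the set were those of Insr (SD 8.31 over 12 mice), Pik3r1 at 101720817 to 101720870 (SD 7.15) and Irs1 at 82289257 to 82289282 (SD 6.42).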
